A study of Mus musculus with 4 samples.

Results

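Smooth muscle, myofibroblast and pericyte genes were followed in the infarcted left ventricle of mice with and without KDM5B, 7 days after myocardial infarction (MI). The set held 10 genes, taken by name. The 6 contractile genes were Acta2, Tagln, Myh11, Cnn1, Smtn and Lmod1, and the 4 pericyte genes were Rgs5, Cspg4, Mcam and Abcc9. Every non-control probe carrying one of these names was taken, which gave 21 of 28305 tested probes and 10 of 15162 tested genes with a symbol. All 21 probes were well above background on all 4 arrays, so no member was lost to the filter on dim probes.

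The WT group was WT mice, and the KO group was KDM5B-KO mice, with 2 arrays in each. The KO allele was made with CRISPR/Cas9 by deleting the part of Kdm5b that holds the JmjC domain, the demethylase domain, which also shifted the reading frame. Mice of both groups were 8 to 10 weeks old at surgery, labelled male, and had their left anterior descending artery tied off, so no uninjured ventricle was compared here. The arrays are numbered 2 and 3 in each group and are called WT 2, WT 3, KO 2 and KO 3. The sources used here do not say whether the RNA on an array came from 1 mouse or from a pool, so the p-values measure only the spread between these samples.

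Contractile smooth muscle cells wrap arteries and arterioles and hold a cytoskeleton of smooth muscle actin, myosin and their regulators. Pericytes sit on capillaries, and myofibroblasts arise from resident fibroblasts after infarction and take up part of the contractile program, Acta2 above all, as they lay down scar. Most contractile genes are driven by serum response factor (SRF) with its coactivators of the myocardin family. These genes therefore report on vessels and on scar cells together in a piece of infarcted ventricle, and in bulk tissue fewer cells of a type cannot be told apart from less RNA per cell.

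The arrays were checked before the members were read. Levels are log2 processed signals minus the array's 75th percentile, called scaled log2 levels, and differences are KO minus WT on that log2 scale. All 10 cardiomyocyte markers were well above background on every array. The brighter Kdm5b probe was at -0.87 and -1.81 in WT and at -2.40 and -2.26 in KO, a difference of -0.996 (SE 0.40). For both Kdm5b probes the groups did not overlap, and 9.15% of all tested genes were likewise separated with KO lower. Neither Kdm5b probe passed the limma test, with an adjusted p of 0.9999 for each. The test thus missed the targeted gene itself, and a gene that did not pass cannot be taken as unchanged. The label male was not borne out on every array: Xist, expressed from the inactive X chromosome, was well above background on WT 2 and KO 2 alone, and the Y-linked Ddx3y on WT 3 and KO 3 alone. The array number and the sex-linked signal therefore ran together, and each within-number difference set arrays of like sex-linked signal side by side. KO 2 also stood apart in genes of the atrium. The atrial light chain Myl7 was at a scaled log2 level of 6.39 on KO 2 and between -0.70 and 0.23 elsewhere, and Myl4 was at 5.46 there and between -0.65 and -0.55 elsewhere. Because of this, every member is given by array, and named genes of the other contractile, pericyte, myofibroblast and regulator lists by array or within each array number.

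No member differed between KO and WT beyond the spread of the arrays. Of the 10 genes, 0 met the threshold (limma adjusted p under 0.05 and over 2-fold), as did 0% of the 15162 tested genes, and 0 reached an unadjusted p under 0.05, against 1.47%. On average 7 members were higher in KO and 3 were lower, where 54.8% of all tested genes were higher. The median difference of the members was 0.17 on the log2 scale beside 0.03 over all tested genes. The members' differences ran from -0.16 for Myh11 to 0.51 for Smtn, and none exceeded 2-fold, which 3.5% of all genes did. The KO pair lay wholly above the WT pair for 1 member, Smtn, against 13.3% of genes, and wholly below it for 0 members, against 9.15%.

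The spread within a genotype was the larger part of the data. KO 3 exceeded KO 2 by more than 2-fold for 4 members, Acta2, Tagln, Cnn1 and Lmod1, against 14.6% of all genes, and fell below it by more than 2-fold for 2 members, Rgs5 and Abcc9, against 15.8%. WT 3 exceeded WT 2 by more than 2-fold for 4 members, Tagln, Myh11, Cnn1 and Lmod1, against 2.05% of all genes. WT 3 fell below WT 2 by more than 2-fold for 1 member, Abcc9, against 4.43%. KO 3 was the highest array for Acta2, Tagln, Cnn1, Lmod1, Cspg4 and Mcam, and KO 2 for Smtn, Rgs5 and Abcc9, so the array that was high did not separate the contractile from the pericyte members.

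**Figure D1:**
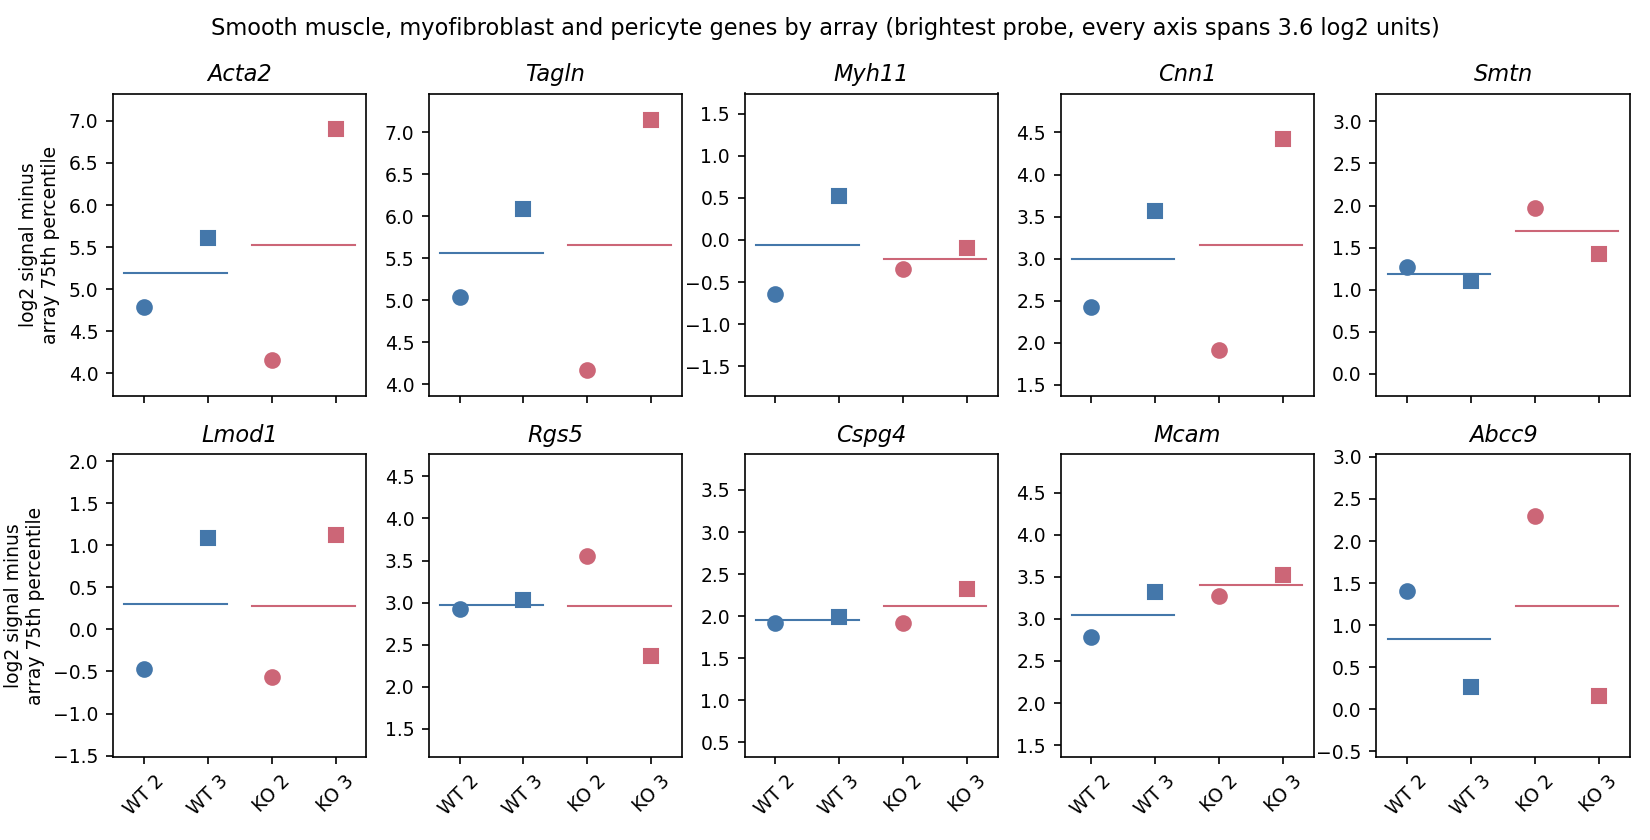
Scaled log2 level (log2 signal minus the array's 75th percentile) of the brightest probe of each of the 10 genes on the 4 arrays. Blue is WT and red is KO, circles are arrays numbered 2 and squares arrays numbered 3, and each line is the mean of a group of 2 arrays. Every axis spans 3.6 log2 units, but heights may not be compared between panels. Acta2, Tagln and Cnn1 had KO 3 as their highest and KO 2 as their lowest array, and Smtn alone had both red points above both blue points.

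Acta2 encodes smooth muscle alpha-actin, the actin of vascular smooth muscle and the usual marker of myofibroblasts. Its brightest probe had 10 spots on each array and lies on chromosome 19 at 34316060 to 34316119 (mm9, minus strand). The scaled log2 level of Acta2 was 4.79 (WT 2), 5.61 (WT 3), 4.15 (KO 2) and 6.90 (KO 3). The KO arrays held both the highest and the lowest value, and the WT arrays lay between them. The SD between spots of this probe on an array was 0.03 to 0.11, after leaving out 2 outlier spots on KO 3, while the difference between KO 3 and KO 2 was 2.74 on the log2 scale, or 6.70-fold. Acta2 differed by 0.33 (SE 1.07) between the groups by limma, adjusted p = 0.9999.

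Within the array numbers Acta2 moved in opposite directions at its brightest probe, though not at every Acta2 probe (given below). KO 2 lay 0.63 below WT 2 on the log2 scale, and KO 3 lay 1.29 above WT 3, which is 2.44-fold. Opposite signs at the 2 numbers were seen in 7 of the 10 members, against 55.6% of all tested genes. Within number 2, 0 members were higher by more than 2-fold (6.96% of all genes) and 0 were lower by as much (9.41%). Within number 3, 7 members were higher in KO (53.7% of all genes), 2 of them, Acta2 and Tagln, by more than 2-fold (2.56%), and 0 were lower by more than 2-fold (1.77%). These counts changed with the scaling: Tagln had a log2 difference of -1.12 within number 2 under quantile normalization and in the authors' values, and within number 3 it was higher by 0.96, short of 2-fold, under normexp background correction. There was 1 array per genotype and number, so neither difference has a replicate.

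The bases upstream of Acta2 and Cnn1 are shown because these genes had the same array order and SRF is known to act through CArG boxes near contractile genes. A CArG box was searched as CC, 6 bases that are each A or T, then GG, on both strands, and again with 1 G or C allowed among the 6. The sequences are the 250 bases before the RefSeq start of each gene on GRCm38.p6, at chr19:34255374-34255623 (minus strand) for Acta2 and chr9:22099003-22099252 (plus strand) for Cnn1, and capitals mark matches to the relaxed form.

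Acta2: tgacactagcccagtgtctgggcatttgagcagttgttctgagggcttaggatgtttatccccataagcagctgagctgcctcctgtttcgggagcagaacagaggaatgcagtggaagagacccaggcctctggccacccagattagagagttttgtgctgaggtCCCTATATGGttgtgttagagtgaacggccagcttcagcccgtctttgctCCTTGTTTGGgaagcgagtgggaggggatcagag

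Cnn1: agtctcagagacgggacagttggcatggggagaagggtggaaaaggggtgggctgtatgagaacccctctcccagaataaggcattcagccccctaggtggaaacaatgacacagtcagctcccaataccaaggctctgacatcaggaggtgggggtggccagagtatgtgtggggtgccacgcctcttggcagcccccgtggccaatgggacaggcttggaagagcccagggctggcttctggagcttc

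The relaxed form matched 2 times before Acta2, with first bases at -84 and -34 from the start, and 0 times before Cnn1. Of the 10 members 8 had a promoter in the RefSeq table, and Tagln and Myh11 did not. None of the 8 held the strict form, and 1, Acta2, held the relaxed form, while 1.47% and 8.59% of all 32851 promoters in the table held them. These are matches of letters in a short window and say nothing on whether a factor was bound.

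The other Acta2 probes were not all alike. The probe at 34315697 to 34315756 was at scaled log2 levels of -0.05, 1.01, -0.30 and 2.36 on WT 2, WT 3, KO 2 and KO 3, in the array order of the brightest probe. The 2 dimmest probes also had KO 3 as their highest array, with differences within number 3 of 0.89 and 0.85 on the log2 scale. Within number 2 they differed by 0.26 and -0.29, so the first of them was higher in KO at both numbers. Their mean scaled log2 levels were -3.83 and -4.15 in WT, and -3.26 and -3.87 in KO. The remaining probe, whose ends lie 3255 bases apart on the genome (34322995 to 34326249, so it crosses at least 1 intron), gave 4.80, 4.62, 5.44 and 4.78. KO 2 was its highest array, and it was 0.64 above WT 2 where the brightest probe was 0.63 below. Within number 3 KO was 0.16 above WT at this probe, so the probe was higher in KO at both numbers.

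The probe that departed from the others in its highest array is printed with the probe of cardiac actin (Actc1), another muscle actin. Both are 60 bases long and were taken from the deposited design. They are in lower case throughout, with no base marked. They lie on mm9 at chr19:34322995-34326249 (Acta2) and chr2:113874011-113874934 (Actc1), each on the minus strand and each over more genome than its own length.

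Acta2 probe A_51_P450957: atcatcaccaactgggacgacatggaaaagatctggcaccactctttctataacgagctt

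Actc1 probe A_51_P149469: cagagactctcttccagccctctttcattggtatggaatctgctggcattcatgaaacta

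Actc1, an actin of heart muscle, was at scaled log2 levels of 8.05 (WT 2), 7.61 (WT 3), 8.76 (KO 2) and 7.09 (KO 3). It had KO 2 as its highest array, as the departing Acta2 probe did, and KO 3 as its lowest, as that probe did not. Whether that probe also took up RNA of other actins was not tested. KO 3 was the highest array for 4 of the 5 Acta2 probes, including both of the dimmest, and no Acta2 probe passed the test.

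**Figure D2:**
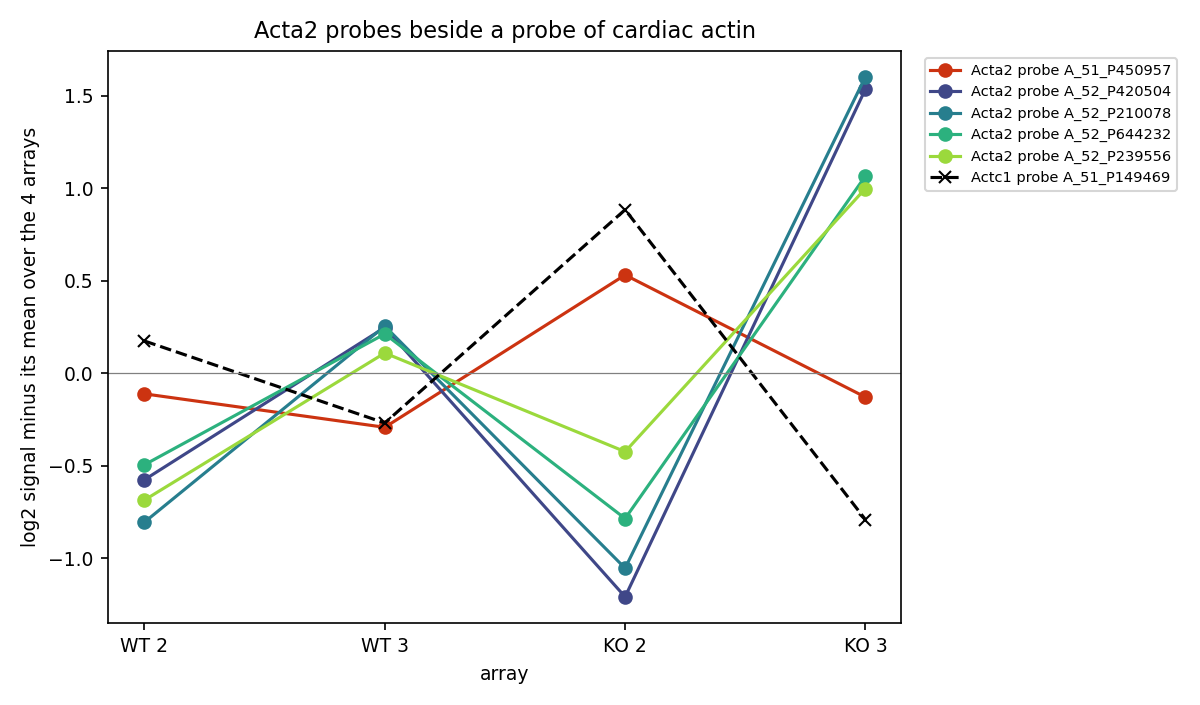
Log2 signal of the 5 Acta2 probes (coloured lines) and of an Actc1 probe (black broken line) on the 4 arrays, each centred on its own mean over the arrays. The red line is the Acta2 probe that crosses an intron, which peaked on KO 2 as Actc1 did, while the other 4 Acta2 probes peaked on KO 3.

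Tagln encodes transgelin (SM22-alpha), an actin-binding protein of smooth muscle that also rises in myofibroblasts. Its brighter probe lies on chromosome 9 at 45738097 to 45738156. The scaled log2 level of Tagln was 5.04 (WT 2), 6.08 (WT 3), 4.17 (KO 2) and 7.14 (KO 3). As for Acta2, the KO arrays enclosed the WT arrays. KO 3 was 7.85-fold above KO 2, and the difference between the groups was 0.10 (SE 1.17) on the log2 scale by limma, adjusted p = 0.9999. Within number 2 the difference was -0.87 and within number 3 it was 1.06. The other Tagln probe repeated this order, with -1.12 and 1.14.

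Cnn1 encodes calponin 1, which binds actin and restrains the myosin motor in contractile smooth muscle. Its only probe lies on chromosome 9 at 21913058 to 21913117. The scaled log2 level of Cnn1 was 2.42 (WT 2), 3.57 (WT 3), 1.91 (KO 2) and 4.42 (KO 3). It had the same order of arrays as Acta2 and Tagln. The group difference was 0.17 (SE 1.03), with -0.51 within number 2 and 0.85 within number 3 on the log2 scale.

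Lmod1 encodes leiomodin 1, an actin-nucleating protein of smooth muscle filaments. Its probe lies on chromosome 1 at 137263311 to 137263369. Lmod1 was at scaled log2 levels of -0.48 (WT 2), 1.09 (WT 3), -0.56 (KO 2) and 1.12 (KO 3). The 2 arrays numbered 3 were high and the 2 numbered 2 were low, with hardly any difference by genotype within either number (-0.09 and 0.03). Its group difference was -0.03 (SE 0.86) on the log2 scale.

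Myh11, the smooth muscle myosin heavy chain and the most restricted smooth muscle marker of the set, did not follow Acta2. Its probe lies on chromosome 16 between 14195223 and 14198147. The scaled log2 level of Myh11 was -0.64 (WT 2), 0.52 (WT 3), -0.35 (KO 2) and -0.10 (KO 3). The KO arrays were close together and lay between the WT arrays. The group difference was -0.16 (SE 0.48), with 0.29 within number 2 and -0.62 within number 3. At number 3, where Acta2 was 1.29 higher in KO, Myh11 was thus lower, and the difference between the genes was not tested.

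Smtn encodes smoothelin, a cytoskeletal protein of contractile smooth muscle. Its probe lies on chromosome 11 at 3420834 to 3420893. Smtn was at scaled log2 levels of 1.26 (WT 2), 1.10 (WT 3), 1.97 (KO 2) and 1.42 (KO 3). The KO arrays were both higher than either WT array, by 1.43-fold on average. The difference of 0.51 (SE 0.29) on the log2 scale was the largest of the 10 and did not pass, with an unadjusted p of 0.157 and an adjusted p of 0.9999 in limma. It held its sign within both numbers, at 0.70 and 0.32.

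Over the 6 contractile members the median difference was 0.13 on the log2 scale, with -0.30 within number 2 and 0.59 within number 3. The sign was opposite at the 2 numbers in 5 of the 6, all but Smtn. In the order of arrays, KO 3 then WT 3 then WT 2 then KO 2 was taken by 4 members (Acta2, Tagln, Cnn1 and Lmod1), and 19.2% of all tested genes had that order.

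Rgs5, a regulator of G protein signalling, is a standard marker of pericytes. Its brighter probe lies on chromosome 1 at 171623021 to 171623080. Rgs5 was at scaled log2 levels of 2.92 (WT 2), 3.03 (WT 3), 3.55 (KO 2) and 2.37 (KO 3). The KO arrays again enclosed the WT arrays, but with KO 2 high and KO 3 low. The group difference was -0.02 (SE 0.48), made of 0.63 within number 2 and -0.66 within number 3. The other Rgs5 probe gave 0.61 and -0.69 within the numbers.

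Abcc9 encodes SUR2, the sulphonylurea receptor subunit of potassium channels of pericytes and smooth muscle, and also of heart muscle. The brightest of its 3 probes lies on chromosome 6 at 142537737 to 142537796. Abcc9 was at scaled log2 levels of 1.41 (WT 2), 0.27 (WT 3), 2.30 (KO 2) and 0.16 (KO 3). Arrays numbered 2 were high and arrays numbered 3 low, the reverse of Lmod1. The group difference was 0.39 (SE 0.91), with 0.89 within number 2 and -0.10 within number 3. The other 2 probes had the same order of arrays, with 1.01 and 0.98 within number 2.

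Mcam (CD146) and Cspg4 (NG2), surface proteins of pericytes and smooth muscle cells, varied least. The scaled log2 level of Mcam, measured on chromosome 9 at 43950521 to 43950580, was 2.79 (WT 2), 3.31 (WT 3), 3.27 (KO 2) and 3.52 (KO 3). The level of Cspg4, measured on chromosome 9 at 56746627 to 56746686, was 1.92, 1.99, 1.92 and 2.32 on the same arrays. Neither gene spread over a 2-fold range. Mcam differed by 0.35 (SE 0.29) and Cspg4 by 0.17 (SE 0.25) on the log2 scale. The dimmer Mcam probe had both KO arrays above both WT arrays, with a difference of 0.37, while its brighter probe did not. Such a separation was seen in 2 of the 21 member probes and in 3698 of the 28305 tested probes. Mcam is also expressed by endothelial cells.

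Over the 4 pericyte members the median difference was 0.26 on the log2 scale, with 0.56 within number 2 and 0.05 within number 3. All 4 were higher on KO 2 than on WT 2, Cspg4 by only 0.00078, where 53.2% of all genes were higher. Cspg4 turned to -0.0176 there under normexp and to -0.0695 under quantile normalization (-0.0694 in the authors' values), which left 3 of 4 higher. At number 3, 2 of the 4 were higher.

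**Figure D3:**
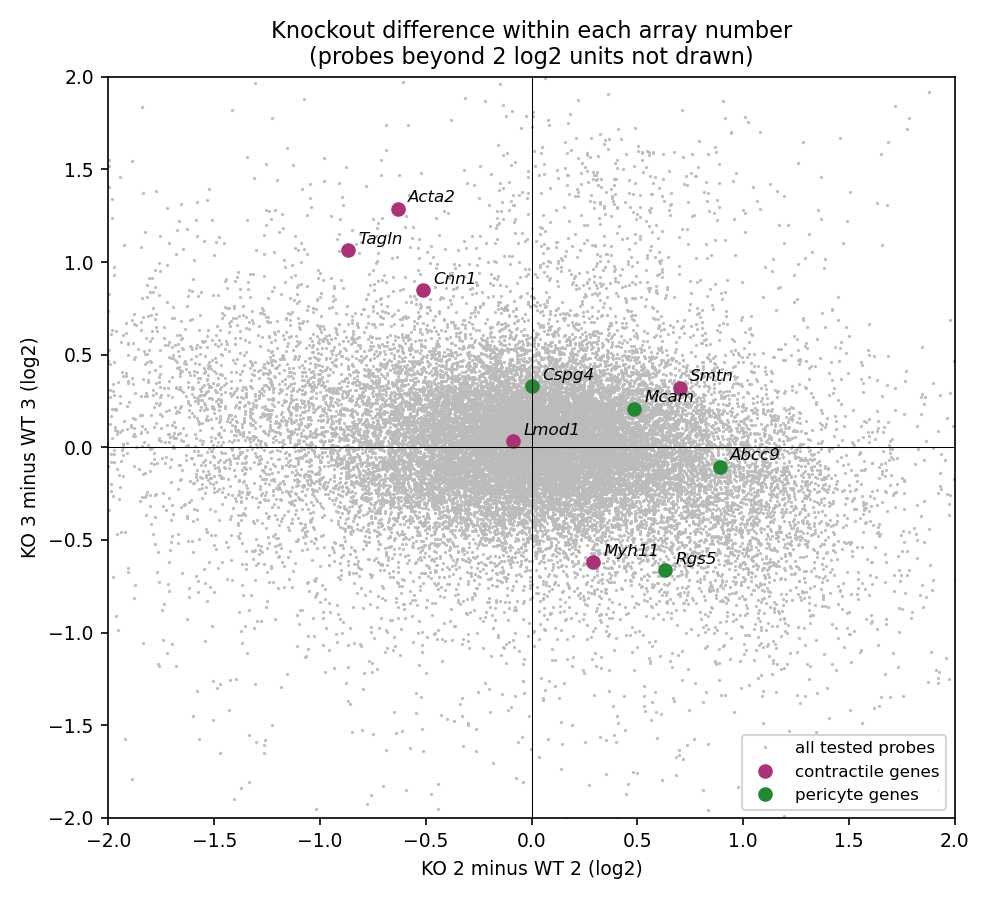
Difference KO minus WT on the log2 scale within array number 2 (horizontal axis) and within array number 3 (vertical axis). Grey dots are tested probes, purple points the 6 contractile genes and green points the 4 pericyte genes at their brightest probe, each difference being 1 array against 1. Acta2, Tagln and Cnn1 lie at the upper left (lower in KO at number 2, higher at number 3), Rgs5 and Myh11 at the lower right, and Smtn and Mcam are higher in KO at both.

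Other genes of the contractile apparatus showed no difference between the groups beyond the spread of the arrays. Of a list of 12, 11 were tested, the calcium-activated potassium channel subunit Kcnmb1 being too dim. None passed the limma threshold and none reached an unadjusted p under 0.05. On average 8 were higher and 3 lower in KO, where 54.8% of all tested genes were higher, and the median difference was 0.12. Ppp1r14a, an inhibitor of myosin phosphatase, had a log2 difference of 0.32 (SE 0.63), with 0.28 within number 2 and 0.35 within number 3. Synpo2, an actin-bundling protein, differed by 0.23 (SE 0.48), with 0.70 and -0.23 within the numbers. Aoc3, an amine oxidase of vascular smooth muscle, differed by -0.21 (SE 0.47), with -0.48 and 0.06. The integrin Itga8 differed by -0.10 (SE 0.65), with 0.18 and -0.37. Of the 11 genes 9 had opposite signs at the 2 numbers. The smooth muscle tropomyosin Tpm2 was singled out after its values were seen. Its scaled log2 levels were 2.83, 3.35, 1.90 and 4.22 on WT 2, WT 3, KO 2 and KO 3, the order of Acta2. Myl9, Cald1 and Aoc3 shared that order, but the actin Actg2, Synpo2 and Nexn had its exact reverse. Mylk, Ppp1r14a, Itga8 and Mrvi1 had neither, so the list as a whole did not follow Acta2.

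Myofibroblast genes were low on KO 2, where the 4 pericyte members were not. Of the other pericyte genes, 6 of 10 were lower on KO 2 than on WT 2. All 12 genes of the myofibroblast list were tested, and all 12 were lower in KO on average, where 54.8% of all tested genes were higher. Their median log2 difference was -0.79. That median was -2.04 within number 2, where 11 of the 12 were lower by more than 2-fold (9.41% of all genes), and 0.35 within number 3, where 9 were higher. The list was therefore low on 1 KO array and not on the other, and none of its genes passed the test. The only gene of the list with both KO arrays below both WT arrays, as in 9.15% of all tested genes, was Cilp, a matrix protein of scar fibroblasts. Cilp was at scaled log2 levels of 4.47 and 4.01 in WT and 2.85 and 3.20 in KO, a difference of -1.21 (SE 0.29) with an unadjusted p of 0.0161 and an adjusted p of 0.9999 in limma. Lox, which cross-links collagen and was singled out after its values were seen, was at 3.45, 4.13, 0.77 and 4.50 on WT 2, WT 3, KO 2 and KO 3.

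Other pericyte genes gave no common direction. Of 12 genes 10 were tested, since Cox4i2 was too dim and Ndufa4l2 was not found by that symbol. Of these 10, 3 were higher and 7 lower in KO on average, where 54.8% of all tested genes were higher. Their median log2 difference was -0.20, and 0 passed the limma threshold. Within number 2, 4 were higher and 6 lower in KO, where 53.2% of all genes were higher. Anpep and Pdgfrb, named after their values were seen, were at -1.40 and -0.63 there. Higd1b, a mitochondrial protein used as a pericyte marker, differed by 0.54 (SE 0.39), with 1.13 within number 2 and -0.06 within number 3. Vtn, vitronectin, differed by 0.20 (SE 0.51), with 0.58 and -0.19. Steap4, a metalloreductase, was the 1 gene of these 10 with both KO arrays below both WT arrays, as in 9.15% of all tested genes. Its difference was -0.81 (SE 0.39), with -0.20 and -1.43 within the numbers and a limma adjusted p of 0.9999. Kcnj8, the pore partner of SUR2, was singled out for that role and was at scaled log2 levels of 3.43, 2.85, 3.87 and 2.61 on WT 2, WT 3, KO 2 and KO 3. That is the order of its partner Abcc9, and the commonest order, had by 19.4% of all tested genes.

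No regulator of the contractile program passed the test either. All 12 were tested, and 9 were higher and 3 lower, where 54.8% of all tested genes were higher. The median log2 difference was 0.16 and 0 passed the limma threshold. Tead1, a factor that binds muscle promoters, had both KO arrays above both WT arrays, with a log2 difference of 0.38 (SE 0.25), and 0.47 and 0.29 within the numbers. Mkl2, which encodes the SRF coactivator MRTF-B, did too, by 0.22 (SE 0.24), with 0.38 and 0.07. These were 2 of the 12, and 13.3% of all tested genes had both KO arrays above both WT arrays. Csrp2, a LIM protein of smooth muscle, differed by -0.50 (SE 0.73), with -1.32 within number 2 and 0.32 within number 3. Mkl1, which encodes MRTF-A, differed by -0.33 (SE 0.62), with -0.78 and 0.11, so both turned sign between the numbers. Myocd, the SRF coactivator myocardin of smooth and heart muscle, was singled out after its values were seen. Its scaled log2 level was 0.64 (WT 2), 0.12 (WT 3), 1.96 (KO 2) and -0.55 (KO 3), which is the reverse of the order of Acta2. That reverse order was had by 19.4% of all tested genes. Among the regulators Srf, Klf4, Tead4 and Fhl2 had it too, while Mkl1, Csrp1, Csrp2 and Tgfb1i1 had the order of Acta2.

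Lists of markers of other cell types also varied between the arrays, some of them in the order of arrays of some members. Each list is given as the mean over its genes of the log2 level centred on the 4 arrays. The orders of Myh11, Smtn, Cspg4 and Mcam were not among those of these lists of other cell types. The other contractile genes were at -0.27 (WT 2), 0.18 (WT 3), -0.19 (KO 2) and 0.27 (KO 3). That was the order of Cspg4 and Mcam, had by 2.73% of all tested genes. The cardiomyocyte list (10 of 10 genes tested) was at 0.52 (WT 2), -0.60 (WT 3), 1.501 (KO 2) and -1.42 (KO 3), the order of arrays shown by Abcc9. Its summed level, as multiples of the array's 75th percentile, was 917 to 1697 in WT and 623 to 3057 in KO. The mesothelial list (6 of 6) was at -0.0014, 0.70, -2.16 and 1.46, the macrophage list (8 of 8) at -0.09, 0.53, -1.21 and 0.77 and the myofibroblast list at 0.28, 0.50, -1.53 and 0.75. These 3 lists had the order of arrays of Acta2, Tagln, Cnn1 and Lmod1. The summed level of the mesothelial list was 10.4 to 18.3 in WT and 2.86 to 27.0 in KO, that of the macrophage list 311 to 348 and 182 to 397, and that of the myofibroblast list 433 to 608 and 160 to 753.

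The endothelial list (8 of 8 genes) was at -0.12, -0.05, 0.50 and -0.34, with summed levels of 56.0 to 58.0 in WT and 47.4 to 84.9 in KO. Its means had the order of arrays of Rgs5, an order had by 3.07% of all tested genes. Pecam1, Tie1, Esam and Cldn5 of this list had that order, and Cdh5, Kdr, Emcn and Egfl7 did not. The fibroblast list (8 of 8) was at 0.21, 0.28, -0.35 and -0.15, with summed levels of 343 to 396 in WT and 290 to 314 in KO. All genes of these 6 lists were well above background on every array. In the atrial list 1 gene, Sln, did not reach well above background on WT 2 and stood at a scaled log2 level of 5.95 on KO 2, and the summed atrial level was 374 to 450 in WT and 379 to 794 in KO. The part of the makeup of the samples in the members' values was not tested. The median difference of the members was 0.42 without KO 2, -0.16 without KO 3, -0.08 without WT 2 and 0.52 without WT 3, so its sign changed with the array left out.

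**Figure D4:**
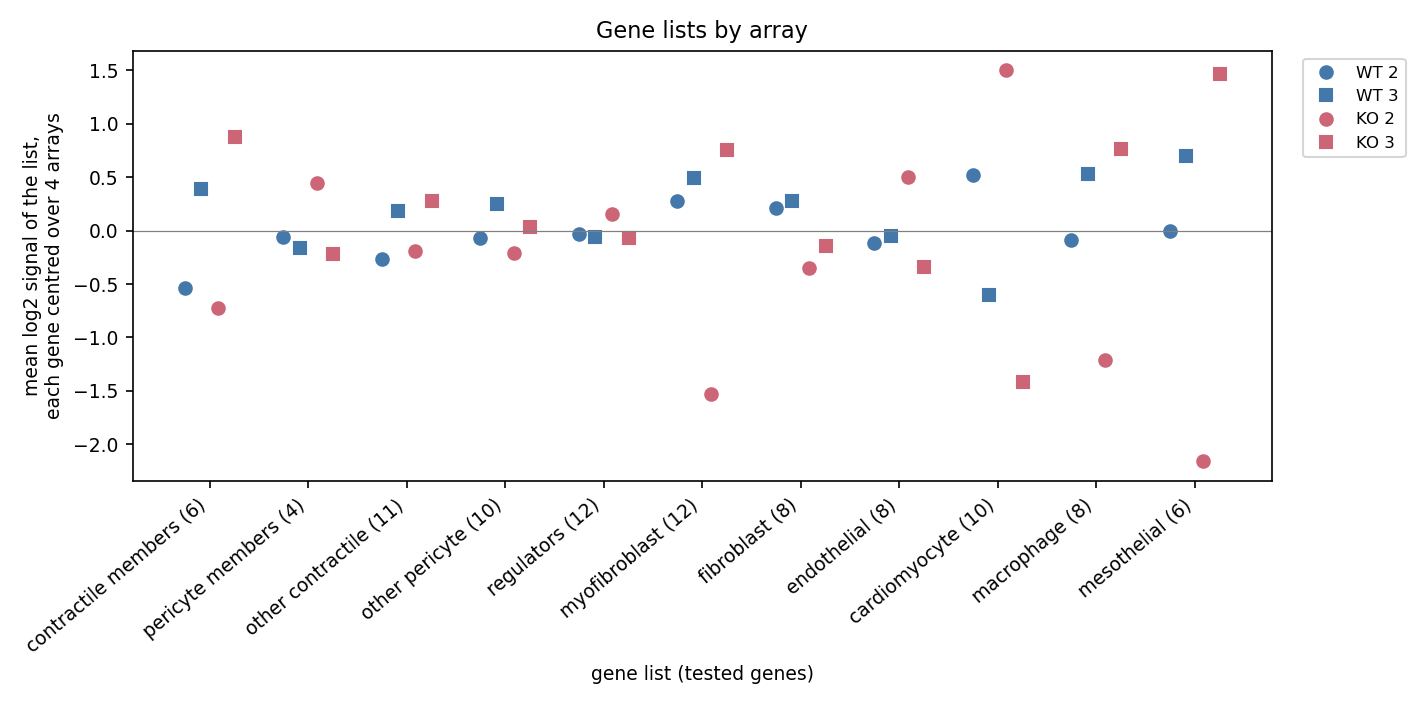
Mean log2 signal of each gene list on the 4 arrays, every gene centred on its mean over the arrays, with the number of tested genes in brackets. Blue is WT, red is KO, circles are arrays numbered 2 and squares arrays numbered 3. KO 2 was high in the cardiomyocyte list (1.501) and low in the mesothelial (-2.16), myofibroblast (-1.53) and macrophage (-1.21) lists, and KO 3 stood at the other end of each, while the contractile members ran from -0.73 on KO 2 to 0.88 on KO 3.

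The genes most like Acta2 over the 4 arrays were found by the root mean square distance of centred log2 levels, among 14455 genes well above background on all arrays. The nearest were Evpl (0.111), Htr2b (0.138), Prkg2 (0.148), Igfbp3 (0.148) and Tuft1 (0.157), with Tagln at rank 6 (0.160) and Cnn1 at rank 7 (0.162). Lmod1 was at rank 342 and Abcc9 at rank 13837. The nearest to Rgs5 were Epb4.1 (0.0375), Adam26a (0.0526), Smc1b (0.0564), Itih4 (0.0578) and Lama3 (0.0592), and none of the other 9 members came nearer than Smtn (0.360). With 4 arrays these distances describe the order and size of 4 values and carry no test.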

How the data were processed

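The authors hybridised left ventricular RNA to 4 Agilent one-colour arrays and deposited the intensity values of Feature Extraction (10.7 per the submitters' processing notes, 10.7.3.1 per the file headers), with probes placed on mm9. A second deposited table held GeneSpring log2 values. Its normalization was not stated, but between 99.90% and 99.96% of matched probes on an array were within 0.01 of quantile-normalized log2 intensities, each column had a median of 6.78, and direction and centring were those of the scanner signal. Groups came from the sample labels.

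The log2 processed signal was shifted by each array's 75th percentile (608 to 976 in signal units) over non-control probes. Outlier spots (92 to 116 per array) were left out, no spot was saturated, and spots of a probe were averaged. The share of probes well above background was 68.1% to 72.0%. Of 41174 probes, 28305 passed this mark on the 2 arrays of a group and were compared by limma 3.58.1 (lmFit, eBayes; R 4.3.3), p-values being adjusted over all of them by Benjamini-Hochberg, calling an adjusted p under 0.05 with a fold change over 2. The script was tested on simulated data. The brightest tested probe stood for a gene.

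The members and lists were chosen with earlier results of these data known. Named from the further lists were the 2 largest rises and falls with separated groups, or by size where none was separated. An exact permutation test of 2 against 2 arrays cannot give a two-sided p under 0.333. All arrays shared 1 slide and 1 scan, so neither could be fitted as a block. Alternatives were normexp (offset 50), quantile and median scaling, other filters, the authors' values, a replicate block, the methods' t-test, trend with robust eBayes, leaving out each array and averaging probes. Other scalings within each array number were added after seeing the data. The number of arrays limits the precision.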

Additional observations from a re-analysis of the deposited data

Results flagged for a closer look

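At the brightest probe, 4 members had KO minus WT differences over 0.5 on the log2 scale, in opposite directions at the 2 array numbers. The difference between the numbers was not tested, since each held 1 array per genotype. Acta2 gave -0.63 at number 2 and 1.29 at number 3. Its probe that crosses an intron gave 0.64 and 0.16, and a dim probe gave 0.26 and 0.89. The remaining Acta2 probes turned sign as the brightest did. Tagln gave -0.87 and 1.06, and Cnn1 gave -0.51 and 0.85. Rgs5 ran the other way, with 0.63 at number 2 and -0.66 at number 3. Opposite signs of any size were seen in 55.6% of all tested genes, and the share past 0.5 was not counted. At number 2, Cnn1 fell short of 0.5, at -0.45, under the median shift. Rgs5 did so there, at 0.46, under quantile normalization and in the authors' values.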

How the results depend on the processing

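No member passed the threshold under any setting run. The count of probes past it was 0 in every setting but the methods' t-test without adjustment, which gave 88 probes at its cutoffs and 0 after Benjamini-Hochberg adjustment. Normexp moved the median difference of all probes to 0.13 on the log2 scale from 0.02, and the median of the members was then 0.12, below that of all probes. The median member difference of 0.17 ranged from -0.16 to 0.52 when each array was left out in turn: -0.08 without WT 2, 0.52 without WT 3, 0.42 without KO 2 and -0.16 without KO 3. Over 11 settings that used all arrays, 5 of 110 member values changed sign. Many of these values could not change: the other filters, the replicate block, the t-test and the robust eBayes left every member difference as it was. The block with quantile normalization repeated the differences of quantile normalization, and the authors' values nearly did. The count therefore does not measure how stable the signs were. Tagln became -0.0597 under quantile normalization, -0.0599 with the authors' values and -0.0597 under the block with quantile normalization, and Lmod1 became 0.0022 and Rgs5 0.013 under the median shift. Leaving out an array turned the sign in 14 of 40 member values, and the cause was not tested. The ranges were -1.04 to 1.70 for Acta2, -1.39 to 1.58 for Tagln, -0.74 to 0.41 for Myh11, -1.09 to 1.42 for Cnn1, -0.87 to 0.82 for Lmod1, -0.61 to 0.57 for Rgs5, -0.0342 to 0.36 for Cspg4 and -0.68 to 1.46 for Abcc9. Smtn (0.24 to 0.78) and Mcam (0.08 to 0.61) kept their sign. With the array number as a replicate block 0 probes passed, as without it, and 602 rather than 410 had an unadjusted p under 0.05. Across 28305 probes the deviations of same-numbered arrays correlated at 0.57, and the sex-linked signal ran with the number, but there were 2 pairs and no label says what the number marks, so the block was kept as an alternative. A block for slide or scan was not run, as there was 1 of each. Signal over background limited none of the members.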
